A study of Mus musculus with 16 samples.

Results

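The fast fibre contractile genes described here are Myh1, Myh2, Myh4, Mylpf, Tnni2, Tnnc2, Tnnt3, Atp2a1, Actn3 and Pvalb, measured in whole mouse muscle on an Illumina expression BeadChip. Every probe whose gene symbol in the array table equals one of these names was taken, without regard to its values, which gave 13 probes of 10 genes among 25697 probes of 18097 genes. Myh1 has 2 probes and Actn3 has 3, and each of the other genes has 1. All 13 probes were detected on 16 of 16 arrays, each with a detection p of 0, and all 13 passed the filter on dim probes. Of the muscle fibre markers, Acta1, the actin of skeletal muscle, read 13841 to 17160 in raw intensity, and Ckm, the muscle creatine kinase, read 14875 to 20439. The fibre markers Ttn and Mb were also detected on 16 arrays but varied more, at 5738.8 to 14922.5 and 3510.3 to 13301.4. No probe of Neb, another such marker, was kept.

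Female mice had either spinal cord injury (SCI) or a sham operation, and received an injection into the muscle of either cardiotoxin (CDTX), a snake venom toxin that breaks down muscle fibres, or saline. The labels name the tissue as hamstring and as hindlimb muscle, taken 2 days after surgery. There were 4 samples for every combination: Sham+Saline and Sham+CDTX without spinal injury, SCI+Saline and SCI+CDTX with it. Strain and age are not given in the sources used here. The study asked what sets apart SCI+CDTX, the group in which bone later forms inside the muscle. The labels mark SCI+CDTX 2 as left out of the authors' final analysis, so the fitted values below come from 15 arrays, and raw intensities are given for all 16. Nothing in the labels says that the samples of a group came from separate animals, so p-values measure the spread between these samples.

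Fast skeletal fibres contract through a thick filament built from a fast myosin heavy chain and its light chains, and a thin filament whose troponin complex answers to calcium. In mouse limb muscle the fast heavy chains are 2a (Myh2), 2x (Myh1) and 2b (Myh4), and a fibre usually makes mostly one of them, with 2a fibres the most oxidative and 2b fibres the most glycolytic. Their genes lie side by side on chromosome 11 in the order Myh3, Myh2, Myh1, Myh4, Myh8, and Tnni2 and Tnnt3 flank Lsp1 on chromosome 7, by the RefSeq gene table.

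Each probe is a 50-base sequence, and the sequences matter here because probes of one gene read differently and the 3 myosin genes are near copies. The brighter Myh1 probe and the 3 Actn3 probes are shown 5′ to 3′ because the results turn on how probes of 1 gene compare. Capitals in the Myh1 probe mark its last 4 bases, which the array table places in a second exon.
Myh1 ILMN_2865744: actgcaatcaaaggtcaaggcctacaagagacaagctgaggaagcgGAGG
Actn3 ILMN_2708303: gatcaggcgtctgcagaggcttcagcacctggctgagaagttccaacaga
Actn3 ILMN_3008110: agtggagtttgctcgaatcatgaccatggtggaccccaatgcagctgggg
Actn3 ILMN_2747543: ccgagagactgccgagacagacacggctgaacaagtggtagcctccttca

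The Actn3 probes start at transcript positions 1224, 2421 and 2505 of the same transcript, and share no position. The other Myh1 probe and the only probes of Myh2 and Myh4 hold a common run of 10 bases, shown in capitals with the 18 bases that follow it.
Myh1 ILMN_2740259: CAAAATGTGAagatctttgtcactctgt
Myh2 ILMN_1219423: CAAAATGTGAaacctttggtcatgcgcc
Myh4 ILMN_1241214: CAAAATGTGAcgttctttgtcactgtcc

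In these 28-base windows the Myh1 probe matched the Myh4 probe at 23 positions and the Myh2 probe matched it at 18. The windows were lined up on the shared run, so 10 of the matches were fixed by that choice. Over the full 50 bases the longest run shared with the Myh4 probe was 11 bases for this Myh1 probe and 12 for the Myh2 probe. The 10-base run was in 4 of 25697 probes, the fourth being a probe of Akr1c6. No other probe on the array had the same 50 bases as any of the 13, but binding between these myosins was not tested.

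The promoters of the 3 myosin genes are shown because these neighbours moved differently in the groups below. Each line gives the 150 bases before the RefSeq start in GRCm38.p6, on the plus strand, and capitals mark matches to the motifs searched.
Myh2, chr11:67170877-67171026: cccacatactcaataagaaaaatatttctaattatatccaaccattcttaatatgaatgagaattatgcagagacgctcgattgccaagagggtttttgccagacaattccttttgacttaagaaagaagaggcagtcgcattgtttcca
Myh1, chr11:67199952-67200101: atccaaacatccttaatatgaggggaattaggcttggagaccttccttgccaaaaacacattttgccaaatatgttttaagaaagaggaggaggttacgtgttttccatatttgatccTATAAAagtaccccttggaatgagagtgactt
Myh4, chr11:67237662-67237811: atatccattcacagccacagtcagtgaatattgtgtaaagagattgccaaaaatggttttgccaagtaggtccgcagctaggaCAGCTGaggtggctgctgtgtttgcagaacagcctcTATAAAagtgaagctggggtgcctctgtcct

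Motifs searched were the E-box CANNTG with its form CAGCTG (each of the latter also counts as the former), the TATA box letters TATAAA and the MEF2 motif, on both strands of the 250 bases before the start, where a TATAAA match may overlap a MEF2 match. The TATAAA nearest the start began 32 bases before it in Myh1 and 31 bases before it in Myh4, and the Myh2 window held none of the 4 motifs. TATAAA was in 12.4% of 32851 RefSeq promoter windows, CANNTG in 66.2%, CAGCTG in 13.0% and the MEF2 motif in 2.92%. Promoters of 7 of the 10 genes were in the table, in 8 entries, of which 2 held TATAAA, 5 CANNTG, 3 CAGCTG and 3 the MEF2 motif. These matches describe letters in a window and say nothing of a factor.

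Across the whole series the brightest probe of an array read between 19350.8 and 24248.5, and 11114 to 13694 probes were detected per array at p under 0.05. Each array averages 17 to 61 beads per member probe, with a standard error over beads of 2.04% to 9.98% of the intensity, and the number of arrays limits the precision. All SCI arrays were on 1 slide and all sham arrays on the other, so slide and surgery cannot be told apart, while both CDTX comparisons lie within a slide. The 4 Sham+CDTX arrays and SCI+CDTX 2 stood apart from the other 11 in a measure made without the fast fibre genes. This probe difference score is the main axis of the differences between the 2 brightest probes of 2780 other genes (33.1% of their variance), and it was 0.347 to 0.390 in Sham+CDTX and 0.281 in SCI+CDTX 2, against -0.266 to -0.068 elsewhere. Its part in the results was not tested, and values fitted with it as a covariate on all 16 arrays are given where they change a call.

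Median scaling of the arrays in place of quantile normalization moved the median change of all 14763 tested probes from -0.04 to 0.32 for CDTX in sham muscle and from -0.01 to 0.17 for SCI in saline muscle (log2). The higher share of all calls went from 47.3% to 85.1% in the first and from 50.3% to 86.4% in the second, and from 47.6% to 64.9% for CDTX in SCI muscle. Changes below are therefore relative to the quantile-normalized array. Muscle was sampled whole, and fewer fast fibres and less of an RNA per fibre cannot be told apart.

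Most fast fibre probes were among the brightest of the array. Raw intensity reached 80% or more of the array's brightest probe on 15 of 16 arrays for Mylpf and for Tnnc2, on 14 for Pvalb, on 9 for Actn3 ILMN_2747543, on 7 for Tnni2, on 5 for Myh4, on 4 for Tnnt3 and on 1 for Atp2a1. The remaining 5 probes never reached it: both Myh1 probes, Myh2, Actn3 ILMN_2708303 and Actn3 ILMN_3008110. No saturation flag comes with these tables, so nearness to the top is the only sign used here.

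The brightest probes also varied least from array to array. The 9 member probes with a median at or above 60% of the top had a highest raw intensity 1.23 to 2.42 times their lowest across 16 arrays, while Myh2, with a median of 23.6% of the top, spanned 7.58-fold. The brighter Myh1 probe, at 12.2%, spanned 4.96-fold and Actn3 ILMN_2708303, at 13.0%, spanned 4.29-fold. Over all probes of the array the 37 at or above 60% had a median span of 1.74-fold, against 3.14-fold for the 185 probes between 20% and 60% and 3.28-fold for the 950 between 5% and 20%. The 9 member probes are themselves among these 37. A change in the RNA of a probe near the top may be understated, and neither whether it is nor how much was tested.

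**Figure D1:**
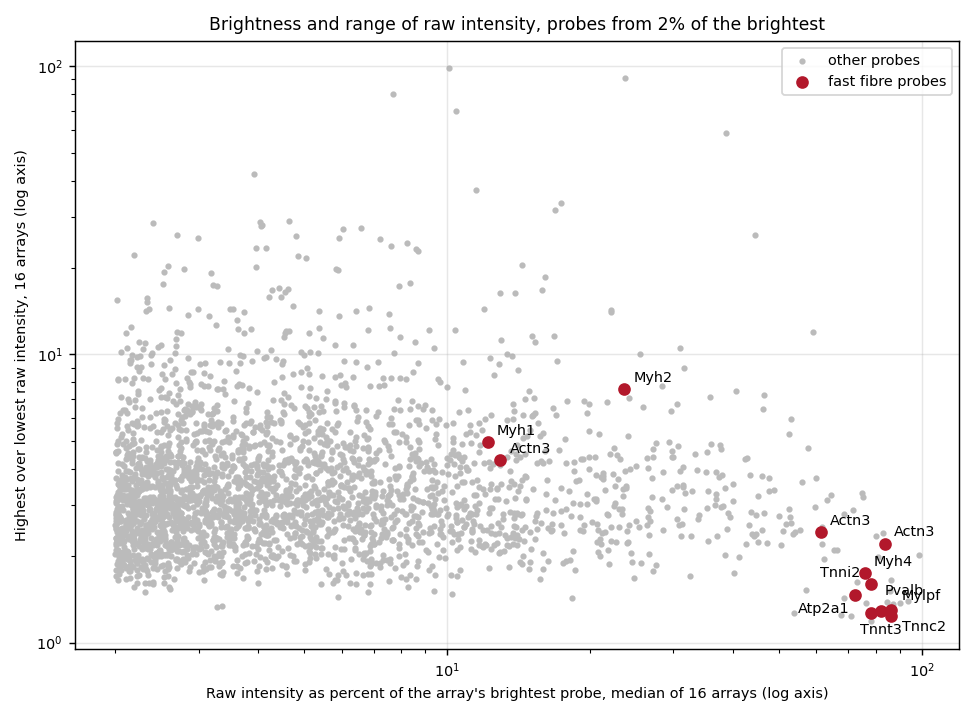
Each point is a probe with a median raw intensity of at least 2% of the array's brightest probe (x axis, log scale), against its highest over lowest raw intensity on 16 arrays (y axis, log scale). Red points are fast fibre probes: Myh2, Myh1 and the dimmest Actn3 probe span 4.29-fold or more, and the 9 probes to the right span at most 2.42-fold.

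**Figure D2:**
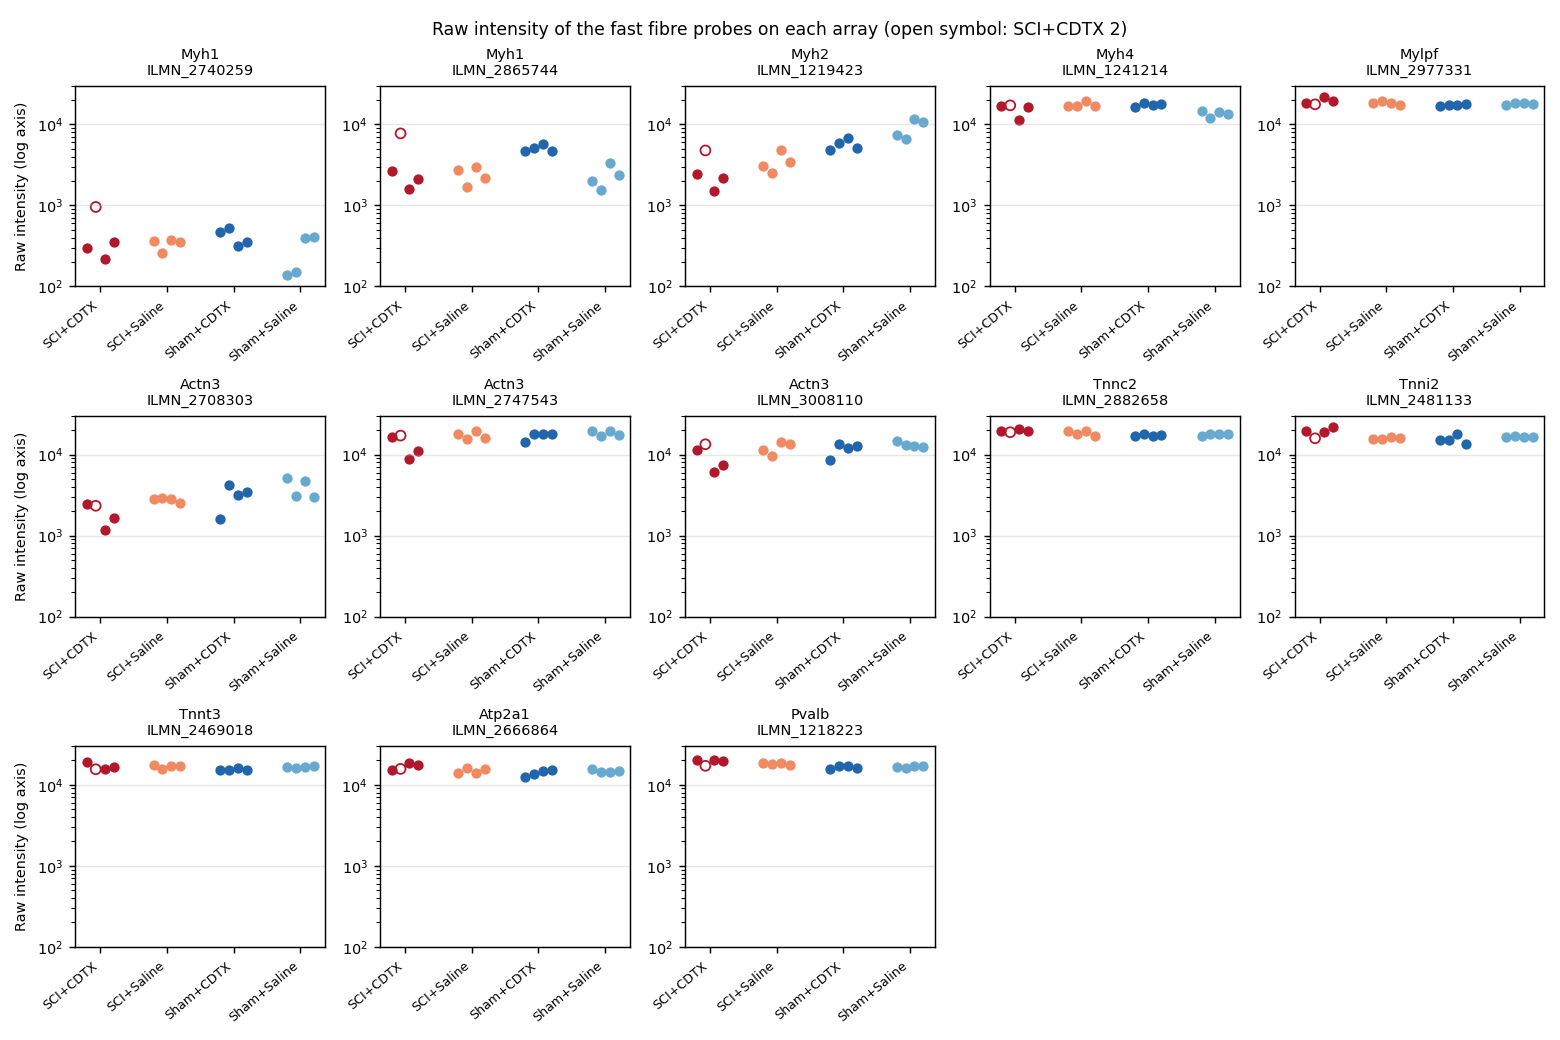
Raw intensity (log axis) of each of the 13 probes on each of the 16 arrays, by group, with SCI+CDTX 2 as an open symbol. Myh2 steps down from Sham+Saline to SCI+CDTX, apart from SCI+CDTX 2, which lies inside the SCI+Saline range. The brighter Myh1 probe is high in Sham+CDTX and on SCI+CDTX 2, and the troponin, Mylpf, Atp2a1 and Pvalb probes form narrow bands.

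Of the fast heavy chains, Myh2 fell after both injuries and was lowest where they were combined, the brighter Myh1 probe was highest in Sham+CDTX muscle over the 15 arrays, a call not kept with all 16, and Myh4 was called in 1 comparison. Myh2 was the one member probe that passed the test in all 4 pairwise comparisons over the 15 arrays. Its call for CDTX in SCI muscle was lost with all 16 arrays (-0.37, limma adjusted p = 0.266). Its call for SCI in CDTX muscle was lost with the probe difference score as covariate (-0.56, limma adjusted p = 0.585).

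Myh2, which encodes the 2a heavy chain of fast oxidative fibres, gave raw intensities of 7482, 6664, 11493 and 10601 in Sham+Saline. In Sham+CDTX it gave 4898, 5914, 6814 and 5184. In SCI+Saline it gave 3083, 2524, 4790 and 3400. In raw intensity the 4 Sham+CDTX arrays were all above the 4 SCI+Saline arrays, and Sham+CDTX 3 read above Sham+Saline 2, so those groups overlapped before normalization.

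In SCI+CDTX it gave 2437, 4770, 1516 and 2200 on arrays 1 to 4, so the array left out by the authors read higher than the other 3, inside the SCI+Saline range. On the normalized log2 scale Myh2 stood at 13.30 ± 0.24 in Sham+Saline (SD, n = 4), 12.36 ± 0.23 in Sham+CDTX (SD, n = 4), 11.46 ± 0.36 in SCI+Saline (SD, n = 4) and 10.82 ± 0.36 in SCI+CDTX (SD, n = 3). No 2 of these groups that neighbour in order overlapped over the 15 arrays, although Sham+CDTX against SCI+Saline was not a comparison of the design.

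CDTX lowered Myh2 by 1.92-fold in sham muscle (log2 fold change -0.94, SE 0.19, limma adjusted p = 0.000555). In saline muscle SCI lowered it by 3.56-fold (log2 fold change -1.83, SE 0.19, limma adjusted p = 1.41e-06), the 51st most negative change of 14763 probes. In CDTX muscle SCI lowered it by 2.91-fold (log2 fold change -1.54, SE 0.21, limma adjusted p = 2.64e-05). The first and second of these calls held in every alternative run, with the log2 fold change between -2.05 and -0.65 and between -2.0 and -1.42, and the third was lost with the probe difference score as covariate (-0.56, adjusted p = 0.585).

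CDTX in SCI muscle lowered Myh2 by 1.57-fold (log2 fold change -0.65, SE 0.21, limma adjusted p = 0.0180), and this smaller change rested on single arrays. It was -0.37 with all 16 arrays (adjusted p = 0.266), -0.45 without SCI+CDTX 3 (adjusted p = 0.141) and -0.49 without SCI+Saline 3 (adjusted p = 0.0659). The interaction, which asks whether CDTX acted on Myh2 differently in SCI and sham muscle, was 0.29 on the log2 scale (95% interval -0.31 to 0.89, limma adjusted p = 0.515).

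Myh1 encodes the 2x heavy chain. Its brighter probe, ILMN_2865744, gave raw intensities of 4639, 5159, 5703 and 4720 in Sham+CDTX. In Sham+Saline it gave 1977, 1558, 3338 and 2403, all below the Sham+CDTX arrays. In SCI+Saline it gave 2734, 1674, 2947 and 2184, all within the Sham+Saline range.

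In SCI+CDTX the brighter Myh1 probe gave 2694, 7736, 1600 and 2143 on arrays 1 to 4, so SCI+CDTX 2 was the highest of all 16. The 5 arrays with a probe difference score above 0 were the 5 highest for this probe, at 4639 to 7736, and the other 11 read 1558 to 3338. The relation of the score to Myh1 was not tested, since the score and the Sham+CDTX group largely coincide.

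On the log2 scale the probe stood at 12.21 ± 0.15 in Sham+CDTX (SD, n = 4), 11.51 ± 0.34 in Sham+Saline (SD, n = 4), 10.96 ± 0.31 in SCI+Saline (SD, n = 4) and 10.90 ± 0.35 in SCI+CDTX (SD, n = 3). CDTX raised it in sham muscle (log2 fold change 0.70, SE 0.19, limma adjusted p = 0.00536), and it was lower in SCI+CDTX than in Sham+CDTX (-1.31, SE 0.21, limma adjusted p = 0.000110). With all 16 arrays neither call stood (0.70, adjusted p = 0.0861, and -0.86, adjusted p = 0.0704), and with the score as covariate both values changed sign (-1.41, adjusted p = 0.0947, and 0.46, adjusted p = 0.695).

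For this probe CDTX in SCI muscle gave -0.06 (95% interval -0.50 to 0.37, limma adjusted p = 0.838). SCI in saline muscle gave -0.55 (SE 0.19, limma adjusted p = 0.0377), with overlapping groups. That call was lost without SCI+Saline 2 (-0.40), SCI+Saline 4 (-0.53), Sham+Saline 1 (-0.57) or Sham+Saline 3 (-0.39), was -0.05 under median scaling and turned to 0.06 without normalization between arrays. The interaction of -0.76 missed the threshold (limma adjusted p = 0.0579), and passed it without SCI+CDTX 1 (-0.92), without SCI+Saline 2 (-0.90) or without Sham+Saline 3 (-0.92). It was -1.27 under median scaling (adjusted p = 0.00629), -1.36 without normalization between arrays (adjusted p = 0.00468), -0.31 with all 16 arrays and 1.20 with the score as covariate.

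The dimmer Myh1 probe, ILMN_2740259, was the dimmest of the 13 and was called in no comparison. CDTX in SCI muscle gave -0.74 (limma adjusted p = 0.160), which passed when only those 2 groups were fitted (adjusted p = 0.0367), and CDTX in sham muscle passed without normalization between arrays (1.09, adjusted p = 0.0370). It read 138, 151, 394 and 411 in Sham+Saline, 468, 524, 314 and 350 in Sham+CDTX, and 369, 256, 373 and 356 in SCI+Saline. In SCI+CDTX it read 295, 957, 216 and 354, so SCI+CDTX 2 was again the highest array. The Sham+Saline arrays fell into a low and a high pair. For CDTX in sham muscle the 95% interval ran from -0.66 to 0.94, which includes the 0.70 of the brighter probe.

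Myh4, which encodes the 2b heavy chain of fast glycolytic fibres, read between 48.8% and 90.8% of the brightest probe. It gave 14692, 12088, 14328 and 13407 in Sham+Saline and 16478, 18401, 17484 and 17799 in Sham+CDTX, with no overlap. In SCI+Saline it gave 17062, 16674, 19454 and 16911, and in SCI+CDTX 16832, 17162, 11195 and 16254. SCI+CDTX 3 was the lowest of all 16 arrays, and the other SCI arrays lay above every Sham+Saline array.

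CDTX raised Myh4 in sham muscle by 0.35 on the log2 scale (SE 0.13, limma adjusted p = 0.0363). This call was lost under median scaling (0.14, adjusted p = 0.410), with the score as covariate (0.35, adjusted p = 0.519) and when any of 5 single arrays was left out: Sham+CDTX 2 (0.33), Sham+CDTX 3 (0.35), Sham+CDTX 4 (0.36), Sham+Saline 2 (0.33) or Sham+Saline 4 (0.33). In SCI muscle CDTX gave -0.18 (95% interval -0.48 to 0.13), and passed under median scaling (-0.40, adjusted p = 0.0373). The interaction was -0.53 (limma adjusted p = 0.0600), and passed under median scaling (-0.55, adjusted p = 0.0491) and without background correction (-0.53, adjusted p = 0.0184). The SCI comparisons gave -0.27 in CDTX muscle (95% interval -0.57 to 0.04) and 0.26 in saline muscle (-0.02 to 0.54), the latter passing without normalization between arrays (0.37, adjusted p = 0.04997).

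Actn3, the actinin that anchors thin filaments at the Z-disc of fast fibres, could be followed at 3 brightness levels on the same samples. All 3 probes had a negative log2 fold change in each of the 4 pairwise comparisons, and the dimmest probe gave the largest. The arrays of the 3 probes rose and fell together, with a Pearson r of 0.81 to 0.89 between pairs over 15 arrays, which share group and normalization.

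The dimmest probe, ILMN_2708303, gave 5083, 3074, 4735 and 3002 in Sham+Saline and 1594, 4207, 3184 and 3501 in Sham+CDTX. In SCI+Saline it gave 2793, 2880, 2857 and 2508, a narrow band below every Sham+Saline array. In SCI+CDTX it gave 2469, 2335, 1184 and 1638, all below SCI+Saline. Its log2 level was 12.22 ± 0.46 in Sham+Saline (SD, n = 4), 11.40 ± 0.66 in Sham+CDTX (SD, n = 4), 11.18 ± 0.03 in SCI+Saline (SD, n = 4) and 10.52 ± 0.54 in SCI+CDTX (SD, n = 3). Sham+CDTX, at 10.45 to 11.96, overlapped each of the other groups.

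For this probe SCI in saline muscle gave -1.04 (SE 0.28, limma adjusted p = 0.00905), a call that held with each array left out in turn and was lost under median scaling (-0.61, adjusted p = 0.0896) and without normalization between arrays (-0.50, adjusted p = 0.166). CDTX in sham muscle gave -0.83 (SE 0.28, limma adjusted p = 0.0205), lost without Sham+CDTX 1 (-0.51), Sham+Saline 1 (-0.67) or Sham+Saline 3 (-0.74). SCI in CDTX muscle gave -0.87 (SE 0.30, limma adjusted p = 0.0363), lost without SCI+CDTX 3 (-0.61), SCI+CDTX 4 (-0.88), Sham+CDTX 2 (-0.69), Sham+CDTX 3 (-0.84) or Sham+CDTX 4 (-0.78). Fitted with the score, these last values became -1.14 (adjusted p = 0.280) and -0.61 (adjusted p = 0.656). CDTX in SCI muscle gave -0.66 (95% interval -1.30 to -0.02), which missed the threshold (limma adjusted p = 0.0888) and passed it without SCI+CDTX 1 (-0.93) or without Sham+CDTX 1 (-0.66).

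The middle probe, ILMN_3008110, was called in no comparison, with log2 fold changes from -0.39 to -0.34 in the 4 comparisons and a lowest raw intensity of 6125 on SCI+CDTX 3. With 1 array left out, CDTX in SCI muscle passed for it without SCI+CDTX 1 (-0.63, adjusted p = 0.0446). Under median scaling all 3 probes passed in that comparison, at -0.87, -0.72 and -0.70 from dimmest to brightest. The brightest probe, ILMN_2747543, read 19323, 17129, 19433 and 17405 in Sham+Saline and 16629, 17155, 8818 and 10948 in SCI+CDTX, where arrays 3 and 4 were the 2 lowest of all 16.

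It was called for SCI in CDTX muscle (-0.47, SE 0.17, limma adjusted p = 0.0467), and the call was lost without any single array of Sham+Saline, without SCI+CDTX 3 (-0.27) or 4 (-0.46), without SCI+Saline 1 (-0.48) or without Sham+CDTX 2 (-0.44), 3 (-0.43) or 4 (-0.45), with values from -0.46 to -0.47 when a Sham+Saline array was left out. With the score as covariate it was -0.15 (adjusted p = 0.886). For CDTX in SCI muscle it gave -0.42 (limma adjusted p = 0.0598), and passed without SCI+CDTX 1 (-0.61), SCI+Saline 2 (-0.48) or Sham+CDTX 1 (-0.42). For SCI in saline muscle the 3 probes gave -1.04, -0.34 and -0.18 from dimmest to brightest. In raw log2 intensity, with no background correction or normalization, those values were -0.49, -0.14 and -0.09. In the same order, normalized values were -0.83, -0.37 and -0.12 for CDTX in sham muscle. They were -0.66, -0.39 and -0.42 for CDTX in SCI muscle, and -0.87, -0.36 and -0.47 for SCI in CDTX muscle. In both of the latter comparisons the brightest probe changed more than the middle one.

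**Figure D3:**
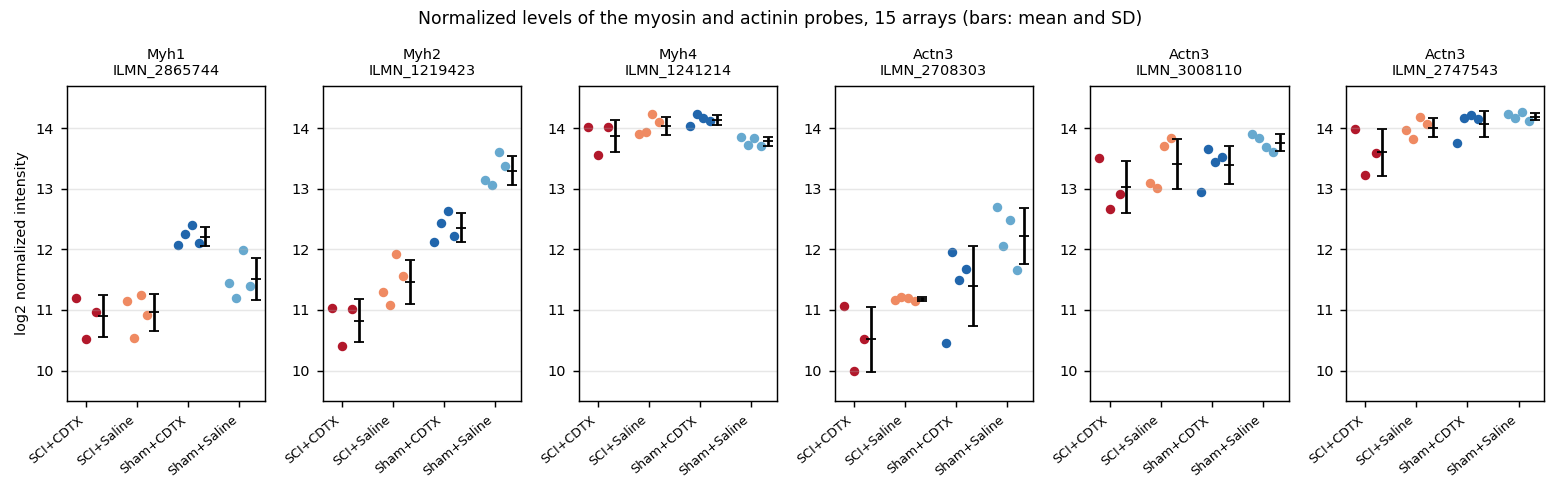
Normalized log2 intensity of the brighter Myh1 probe, Myh2, Myh4 and the 3 Actn3 probes on the 15 arrays fitted, by group, with the mean and SD beside each group. Myh2 falls from 13.30 in Sham+Saline to 10.82 in SCI+CDTX, and the drop in Actn3 is steepest for its dimmest probe.

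The troponin genes and Mylpf encode the calcium-sensing and light-chain parts of the fast sarcomere. The probes of Tnnc2, Mylpf and Tnnt3 were flat, while that of Tnni2 read 13611 to 21730. Tnnc2, the calcium-binding troponin C, read 16729 to 20645 across 16 arrays, and its 4 pairwise log2 fold changes lay between -0.07 and 0.11. Mylpf, the fast regulatory light chain, read 16844 to 21761 and changed by -0.09 to 0.08. Tnnt3, the tropomyosin-binding troponin T, read 15199 to 19275 and changed by -0.16 to 0.14. No call was made for any of these 3 genes, each among the brightest probes, although Tnnt3 passed for CDTX in sham muscle without background correction (-0.16, adjusted p = 0.0158), under median scaling (-0.33, adjusted p = 0.0202) and without the detection filter (adjusted p = 0.0407).

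Tnni2, the inhibitory troponin I, gave 19674, 15883, 18941 and 21730 in SCI+CDTX and 15550, 15734, 16487 and 15869 in SCI+Saline. The 3 fitted SCI+CDTX arrays were all above SCI+Saline, and the array left out lay within the range of that group. CDTX in SCI muscle gave 0.33 (95% interval 0.02 to 0.63, limma adjusted p = 0.0769), and SCI in CDTX muscle gave 0.33 (limma adjusted p = 0.102), which passed without Sham+CDTX 3 (0.44, adjusted p = 0.0331). In sham muscle CDTX gave -0.18 (95% interval -0.47 to 0.10), and the interaction was 0.51 (limma adjusted p = 0.0679), which passed without Sham+CDTX 3 (0.63, adjusted p = 0.0267). CDTX in SCI muscle also passed without normalization between arrays, with slides normalized separately and without the detection filter. SCI in CDTX muscle also passed with array weights, under median scaling and without normalization between arrays. Its value was 0.21 with all 16 arrays unweighted and -0.16 with the score. The interaction also passed under median scaling, with separate slides, without the detection filter and with trended eBayes, but was -0.03 with the score.

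Atp2a1 encodes SERCA1, the pump that returns calcium to the store in fast fibres. It gave 15423, 15696, 18525 and 17755 in SCI+CDTX and 12633, 13698, 14673 and 15273 in Sham+CDTX, without overlap. SCI in CDTX muscle gave 0.35 (95% interval 0.05 to 0.66, limma adjusted p = 0.0736), and CDTX in SCI muscle 0.31 (limma adjusted p = 0.0953), which passed without SCI+Saline 4 (0.38, adjusted p = 0.0463). The interaction was 0.49 (limma adjusted p = 0.0778), and also passed without SCI+Saline 4 (0.57, adjusted p = 0.0430) and without the detection filter. SCI in CDTX muscle passed with array weights, without the detection filter, with trended eBayes and when only the groups compared were fitted. Its value was 0.27 with all 16 arrays unweighted and 0.05 with the score. Without background correction both Tnni2 and Atp2a1 passed for CDTX in SCI muscle, for SCI in CDTX muscle and for the interaction, with nearly the same log2 fold changes and adjusted p-values of 0.0217 to 0.0360.

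Pvalb encodes parvalbumin, the soluble calcium buffer of fast fibres. It gave 20192, 17145, 20276 and 19859 in SCI+CDTX and 15725, 17196, 17113 and 16005 in Sham+CDTX. The 3 fitted SCI+CDTX arrays were above Sham+CDTX, while SCI+CDTX 2 lay inside that range. Its log2 fold changes lay between -0.04 and 0.20, and none was called (limma adjusted p = 0.249 for the largest, SCI in CDTX muscle, which passed without background correction at an adjusted p of 0.0118).

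Counted over the 13 probes, CDTX in SCI muscle gave 0 higher and 1 lower call, where 20.4% of all tested probes were called higher and 22.5% lower. CDTX in sham muscle gave 2 higher and 2 lower calls, against 23.1% and 25.8% of all probes. SCI in CDTX muscle gave 0 higher and 4 lower, against 14.9% and 14.9%, and SCI in saline muscle 0 higher and 3 lower, against 14.8% and 14.6%. The interaction gave 0 calls by limma, against 12% higher and 11.6% lower among all probes. At an unadjusted limma p under 0.05 the interaction had 2 probes higher and 2 lower. CDTX in SCI muscle had 2 higher and 3 lower, and CDTX in sham muscle 2 and 2. SCI in CDTX muscle had 2 higher and 4 lower, and SCI in saline muscle 0 and 3. The share of all probes at this unadjusted threshold was not counted, so these counts have no background to be set against.

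The median log2 fold change over the 13 probes was -0.06 for CDTX in SCI muscle, -0.12 for CDTX in sham muscle, -0.27 for SCI in CDTX muscle and -0.14 for SCI in saline muscle. Over all 14763 tested probes these medians were -0.05, -0.04, 0.01 and -0.01. The calls lay in Myh2, Myh1, Myh4 and Actn3, and the comparisons share groups, so their counts are not independent.

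**Figure D4:**
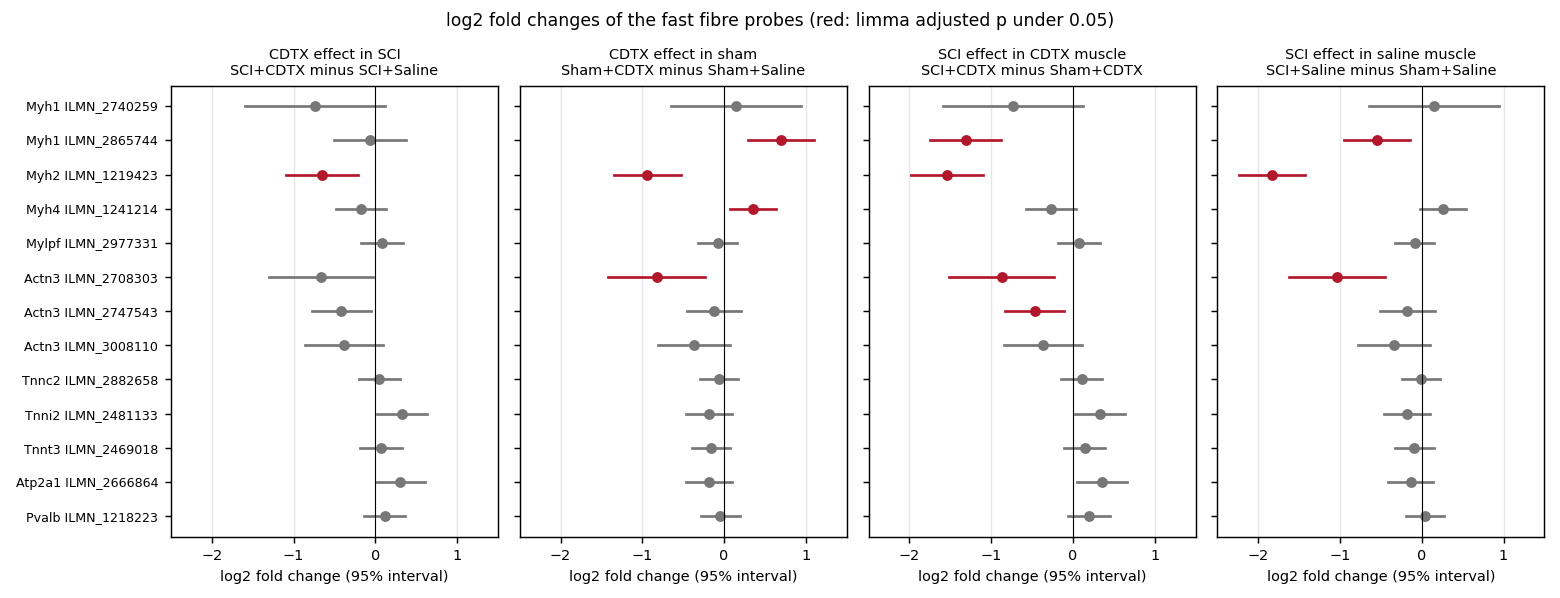
The log2 fold change (x axis) of each of the 13 probes in the 4 pairwise comparisons, with its 95% interval from limma; red marks an adjusted p under 0.05. Myh2 is red in all 4 panels and the Mylpf, troponin, Atp2a1 and Pvalb intervals stay grey.

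The members did not move as 1 block. Over 15 arrays Myh2 had a Pearson r of 0.70 to 0.83 with the 3 Actn3 probes and of -0.04 with Myh4. Mylpf and Atp2a1 had an r of 0.77, and Tnni2 and Pvalb one of 0.70. The 78 pairs ranged from -0.60 (Myh4 with Mylpf) to 0.89, and these arrays share group structure and normalization.

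Among 10942 other genes, the 5 most like the mean standardised pattern of the members were Primpol, Plec, Slc44a2, Tnfaip1 and Specc1l, with an r of 0.83 to 0.86 over 15 arrays. The genes most like Myh2 alone were Scn4b, Perm1, Phtf2, Aldh4a1 and Slc40a1, with an r of 0.96 to 0.98, a list added after the values were seen.

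Around these members, other fibre genes, most of them contractile or calcium-handling and some of energy metabolism (such as Pfkm, Pygm and Gpd1), were lower after injury. Of 28 measured, CDTX lowered 14 and raised 1 in SCI muscle, and lowered 16 and raised 1 in sham muscle. SCI lowered 12 and raised 0 in CDTX muscle, and lowered 14 and raised 1 in saline muscle. Of all probes 22.5%, 25.8%, 14.9% and 14.6% were called lower in these comparisons, in that order. The medians of the list were -0.51, -0.52, -0.49 and -0.55, against medians of all probes near 0. Under median scaling the counts lower became 17, 13, 15 and 8, and fitted with the score 12, 9, 1 and 14. Over all probes, calls in either direction were 6338, 7219, 4393 and 4350 in the main fit. They were 6406, 7877, 4649 and 5132 under median scaling, and 6120, 3097, 262 and 4015 with the score.

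Casq1, which stores calcium in fast fibres, changed by -2.19 and Gpd1, a glycerol phosphate dehydrogenase, by -2.22 with SCI in saline muscle (limma adjusted p = 2.47e-06 and 6.14e-07). With CDTX in sham muscle Smtnl1 changed by -2.18 and Myot, a Z-disc protein, by -1.81. Ldb3, also of the Z-disc, changed by -1.57 with CDTX in SCI muscle, and Tpm1, a tropomyosin, rose by 1.05 in SCI and by 1.31 in sham muscle. Myom1 and Myoz1 changed by -1.77 and -1.62 with SCI in CDTX muscle, and gave 0.34 and 0.05 with the score as covariate. The bright genes Acta1, Ckm and Myl1 were called in none of the 4 comparisons.

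Slow fibre genes fell with CDTX. Of 12 measured, CDTX lowered 9 and raised 1 in SCI muscle and lowered 10 and raised 1 in sham muscle, with medians of -1.30 and -1.60. Of all probes CDTX lowered 22.5% and 25.8% in these comparisons. Myl2, the slow regulatory light chain, changed by -3.07 in SCI and -2.31 in sham muscle, Myoz2 by -2.5 in sham muscle, and Tpm3 rose by 2.20 and 2.5. SCI lowered 6 of 12 in CDTX muscle (14.9% of all probes) and 6 of 12 in saline muscle (14.6%), with medians of -0.53 and -0.67. With the score as covariate the first count was 0 and its median 0.83, and under median scaling the second was 3. For SCI in CDTX muscle 262 of all probes were called with the score, against 4393 in the main fit.

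Of 13 listed regulators of fibre genes 7 passed the filter. The list is not of the fast programme alone, since it includes Ppargc1a, a regulator of oxidative metabolism. CDTX in SCI muscle lowered 4 of 7 (22.5% of all probes), among them Mef2c, a transcription factor of muscle genes (-1.85, limma adjusted p = 7.71e-05). SCI in CDTX muscle lowered 4 of 7 (14.9% of all probes), led by Nfix, a factor of later myogenesis (-2.04), and Mef2c (-2.01). With the score as covariate these 2 genes were at -0.48 and 0.30. In sham muscle CDTX lowered 2 (Ppargc1a and Maf) and raised 1 (Eya4) of 7. There 25.8% of all probes were lower and 23.1% higher, so these counts are near the background. SCI in saline muscle lowered 3 and raised 2 of 7, against 14.6% and 14.8%.

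Markers of other cells moved with CDTX. Of 9 monocyte and macrophage markers measured, CDTX raised 9 in SCI muscle and 9 in sham muscle, led by Lyz2 (3.51) and Cd68 (4.61). The summed raw intensity of the 9 was 12331 to 17543 in SCI+CDTX and 15784 to 19221 in Sham+CDTX, against 1551 to 4713 in SCI+Saline and 1284 to 2267 in Sham+Saline. SCI raised 2 of the 9 in saline muscle (14.8% of all probes), and in CDTX muscle raised 2 and lowered 1 (14.9% and 14.9% of all probes).

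Beside the 20.4% and 23.1% of all probes raised by CDTX in SCI and in sham muscle, neutrophil markers were raised at 2 of 6 in each, and fibroadipogenic progenitor markers at 4 of 8 and 7 of 8, with 1 of 8 lowered in sham muscle. Endothelial markers were raised at 1 of 6 in SCI muscle and lowered at 3 of 6 in sham muscle (25.8% of all probes), and SCI lowered 5 of 6 in saline muscle (14.6% of all probes). The neutrophil counts and the endothelial count in SCI muscle are few genes near those shares. Of 3 muscle precursor markers measured, SCI in saline muscle raised 2, against 14.8% of all probes. These were Myog, by 3.34, and Myod1, by 2.62, both factors of new muscle. CDTX raised the same 2 in sham muscle (23.1% of all probes) and lowered 1, Myog, in SCI muscle (22.5% of all probes). In CDTX muscle SCI raised 1, also Myog (14.9% of all probes). With SCI in saline muscle S100a8, a neutrophil gene, was the one neutrophil marker called, at 4.74. Its values were 3.90 to 6.66 when single arrays were left out. The summed raw intensity of the 6 neutrophil markers ran from 570.5 to 10472 within Sham+Saline. The part of these cell types in the fast fibre values was not tested.

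Of 4 developmental and cardiac-type contractile genes measured, CDTX raised 1 and lowered 2 in SCI muscle (20.4% and 22.5% of all probes). In sham muscle it raised 1 and lowered 1 (23.1% and 25.8% of all probes), near those shares. SCI raised 1 and lowered 2 in CDTX and in saline muscle, with Actc1, the cardiac actin, at -1.86 and -1.11. Of all probes SCI raised 14.9% and lowered 14.9% in CDTX muscle, and 14.8% and 14.6% in saline muscle. Myh8, the perinatal heavy chain beside Myh4 on the chromosome, changed by 1.04 with CDTX in SCI muscle and by -0.90 in sham muscle. The Myh8 call in SCI muscle was lost without SCI+CDTX 4, SCI+Saline 1 or SCI+Saline 2, with values of 0.68 to 1.34 over the 15 fits that each leave out 1 array. The sham call was lost without Sham+CDTX 2, 3 or 4 or Sham+Saline 1 or 4 (-1.13 to -0.72 over the 15 fits), and its value was -0.11 under median scaling and 2.48 with the score as covariate.

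**Figure D5:**
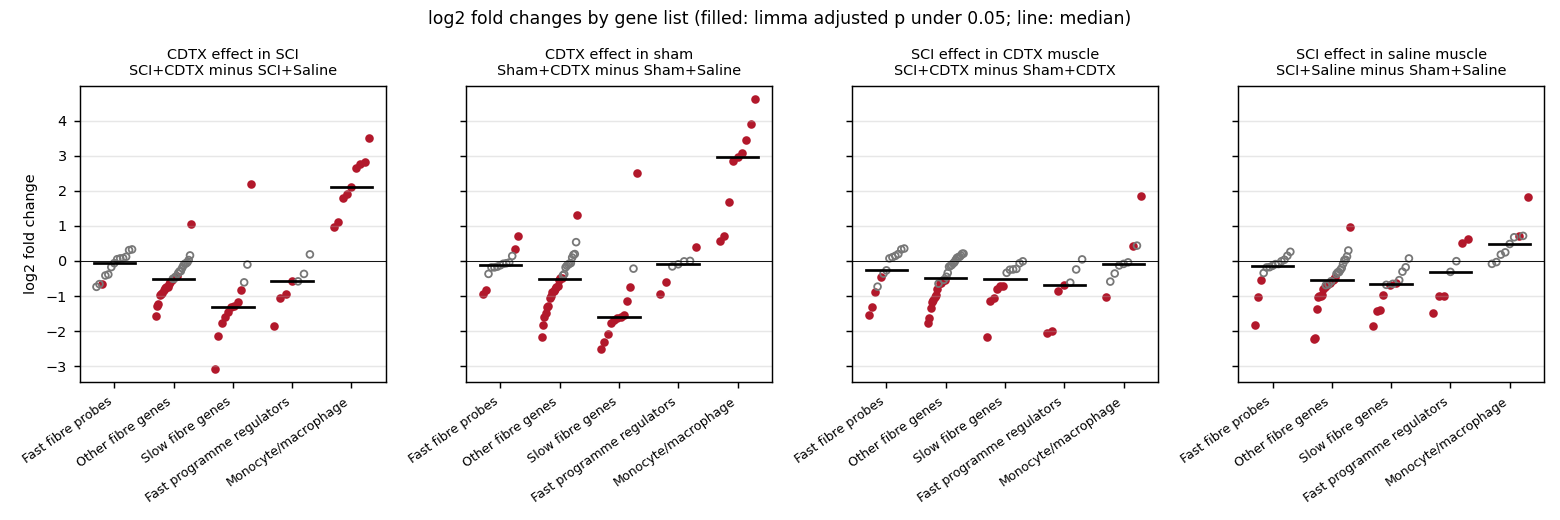
The log2 fold change (y axis) of the 13 fast fibre probes and of the genes of 4 lists in the 4 pairwise comparisons, filled where the limma adjusted p was under 0.05, with the median as a line. The slow fibre genes lie lowest with CDTX, at medians of -1.30 and -1.60, and the monocyte and macrophage markers lie highest. The list labelled as fast programme regulators also holds Ppargc1a, a regulator of oxidative metabolism.

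The authors' deposited table gives group means on its own normalization, each set against SCI+CDTX. In the authors' deposited table Myh2 averaged 1805.5 in SCI+CDTX, 3108.5 in SCI+Saline (p = 0.0340), 5014.5 in Sham+CDTX (p listed as 0) and 11785 in Sham+Saline (p listed as 0), the order given above. The authors' deposited table lists Myh1 ILMN_2865744 at 1889 in SCI+CDTX and 4438.4 in Sham+CDTX (p listed as 0). Against Sham+Saline, the authors' deposited table lists all 13 member probes lower in SCI+CDTX, so a lower value there is not particular to Actn3. Its log2 ratios for the 3 Actn3 probes are -1.77, -1.22 and -1.14 from dimmest to brightest. For probes described as flat above, the authors' deposited table lists -0.49 (Tnnt3), -0.38 (Mylpf) and -0.35 (Tnnc2), with Tnnt3 passing 0.05 there. Mylpf averages 23960.9 in Sham+Saline in the authors' deposited table, and 15435.8 to 18464 in the other groups. For Tnni2 the authors' deposited table lists 18637.6 in SCI+CDTX and 13726.4 in Sham+CDTX (p = 0.0274), a difference not called above. How those p-values were corrected is not given in the sources used here.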

How the data were processed

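RNA of 16 whole-muscle samples was hybridised to 2 slides, 4 samples in each of 4 groups. The authors deposited raw intensity per probe, the mean over beads with no background correction or normalization, and a detection p-value, exported with GenomeStudio 2011.1 per the submitters' processing notes and GSGX 1.9.0 per the file headers. Per the file headers other columns give bead numbers and standard errors. The authors' deposited final table gives group means with a difference p, and its correction is not given in the sources used here.

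Intensities of 15 arrays were background-corrected by normexp from the detection p, given an offset of 16, quantile normalized and put on the log2 scale (limma 3.58.1, R 4.3.3). The filter kept 14763 of 25697 probes, those detected (p under 0.05) on 3 or more arrays. All 4 groups entered 1 limma fit without a block, with 4 pairwise contrasts and their interaction. A call is a Benjamini-Hochberg adjusted p under 0.05 over all kept probes, and a fold change understates the change of dim probes because of the offset. The script was tested on simulated data. For a list, the brightest kept probe stood for a gene, and genes named are up to 3 called genes per direction, of which 1 is not reported here. Other genes were renamed through the RefSeq table by Entrez identifier. The members and lists were chosen with earlier results of these data known. Replicate numbers were not taken to pair the samples (a check is given with the alternatives). Alternatives were the arrays used, a probe difference score, scaling, background correction, detection filter, eBayes form, groups fitted, replicate block, and each array left out.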

Additional observations from a re-analysis of the deposited data

Results flagged for a closer look

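Among 52 sets of 4 arrays (13 probes in 4 groups, all 16 arrays), 4 had 1 array apart from the other 3. A rate of 1 in 20 would give 2.6 of 52. That rate assumes values without ties, and quantile normalization gives probes of equal rank the same level. The 4 flags can therefore not be set against 2.6. For Myh4, SCI+CDTX 3 stood at 13.57 on the log2 scale and the others at 14 to 14.02. For Actn3 ILMN_2747543, Sham+CDTX 1 stood at 13.75 and the others at 14.15 to 14.21. For Tnnc2, SCI+CDTX 3 stood at 14.26 and the others tied at 14.17, with ranks on the array of 4 and 9. For Pvalb, Sham+Saline 2 stood at 14.05 and the others tied at 14.07, with ranks on the array of 16 and 15.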

How the results depend on the processing

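Counts of called probes moved with the arrays, the scaling, the background correction and the detection filter, and the cause was not tested. With all 16 arrays, CDTX in SCI muscle had 0 lower, CDTX in sham muscle 1 higher and SCI in CDTX muscle 1 lower; with array weights the last had 2 higher. With the probe difference score CDTX in sham muscle had 0 higher and 1 lower, and SCI in CDTX muscle 0 lower. Calls over all probes with the score fell to 3097 and 262 in these comparisons, from 7219 and 4393. Median scaling gave 5 lower (CDTX in SCI muscle), 1 higher and 4 lower (CDTX in sham muscle), 1 higher (SCI in CDTX muscle), 1 lower (SCI in saline muscle) and 1 higher and 2 lower (interaction). Without normalization between arrays these were 1 higher and 3 lower, 1 lower, 1 higher, 1 higher and 1 lower, and 2 lower.

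Without background correction CDTX in SCI muscle had 2 higher and 2 lower, SCI in CDTX muscle 3 higher and the interaction 3 higher and 1 lower. With slides normalized separately CDTX in SCI muscle, CDTX in sham muscle and the interaction each had 1 higher. With no detection filter CDTX in SCI muscle had 1 higher, SCI in CDTX muscle 2 higher and 2 lower, and the interaction 2 higher and 1 lower; the stricter filter gave the interaction 1 lower. Trended and robust eBayes gave 2 lower, 1 higher, and 1 higher and 2 lower for CDTX in SCI muscle, SCI in CDTX muscle and the interaction, and fitting only the groups compared gave 3 lower and 1 higher for the first and second. The authors' deposited table had 1 higher and 2 lower for SCI in CDTX muscle.

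Leaving out each array in turn, counts higher and lower ranged over 0 to 1 and 0 to 4 (CDTX in SCI muscle), 1 to 2 and 1 to 2 (CDTX in sham muscle), 0 to 1 and 2 to 4 (SCI in CDTX muscle), 0 to 0 and 2 to 3 (SCI in saline muscle), and 0 to 1 and 0 to 1 (interaction). The replicate block gave 1 higher for CDTX in sham muscle, 2 lower for SCI in CDTX muscle and 1 lower for the interaction. Same-numbered arrays of different groups correlated from -0.27 to 0.38 in 21 pairs, 3 of them over 0.1. Differently numbered arrays correlated from -0.28 to 0.32 in 63 pairs, 12 of them over 0.1. This check showed no pairing by number, and correlations so spread cannot exclude one. Over single probes and alternatives, the call was as reported in 1613 cases, newly made in 66 and lost in 60, and in 3 a called value changed sign, all of Myh1 ILMN_2865744: CDTX in sham muscle (-1.41) and SCI in CDTX muscle (0.46) with the score, and SCI in saline muscle (0.060) without normalization between arrays. Values not called as reported also changed sign under some alternatives, such as the Myh1 interaction with the score. Changes of the 8 probes that reached 80% of the brightest probe on any array may be understated, which was not tested.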
